A study of Arabidopsis thaliana with 18 samples.

Results

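The cysteine-rich receptor-like kinases (CRKs) of Arabidopsis thaliana were followed across 18 mRNA libraries from whole seedlings. The members were the 41 loci named CRK1 to CRK34 and CRK36 to CRK42, found by their locus identifiers among 33378 loci in 31362 rows of the count tables. Each member had 1 row. The CRK25 row also holds AT4G05190 and the CRK42 row also holds AT5G40382, so reads of these pairs cannot be told apart. The seedlings, all of the Columbia accession, were 11 days old and had grown at 22 °C with 18 h of light a day.

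The 18 libraries fall into 7 groups. In the dcl2dcl3dcl4 triple mutant, written dcl234, 1 library carries a truncated DCL1 under the 35S promoter (its mutation label reads 35S-DCL1RDD), 3 carry 35S-RTL2 and 3 carry no transgene. In plants with intact DCL genes, 2 libraries carry 35S-RTL1-Myc, 3 carry 35S-RTL2, 3 are rtl2-1 mutants and 3 are Col-0 wild type. DCL enzymes make small RNAs by cutting double-stranded RNA, and RTL1 and RTL2 belong to the same wider family of RNase III enzymes. The 35S promoter of a plant virus drives a gene in most tissues, and the labels do not say how many transgenic lines stand behind a group. They also do not say whether replicates came from separate cultures, so p-values measure the spread between these libraries, which may be technical.

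CRKs are membrane proteins with extracellular DUF26 domains, named after a conserved cysteine motif, a membrane span and an intracellular kinase. Many lie in tandem arrays on chromosome 4, and many CRK transcripts are known to respond to salicylic acid, microbial patterns, ozone and other oxidative stress. In leaves, several CRK proteins are tied to pattern-triggered immunity, the oxidative burst and cell death. By locus number, CRK5 to CRK24 form the largest array with 20 members, while CRK36 to CRK40 (5 members), CRK30 to CRK34 (5) and CRK27 to CRK29 (3) are smaller groups, and 8 members lie elsewhere. Array neighbours are copies of one another, and how the authors counted reads that match several copies is not given in the sources used here.

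The libraries held 20775728 to 34874423 counts. Levels are CPM, the count of a gene relative to its library total, scaled by the TMM method. The constructs checked the labels: RTL1 was at 1525 and 1584 CPM in 35S-RTL1-Myc plants, and its group mean elsewhere was at most 0.388 CPM. RTL2 was at 1674 to 2053 CPM in dcl234 35S-RTL2, 515 to 617 CPM in 35S-RTL2 and 0.304 to 0.592 CPM in rtl2-1, against 2.89 to 2.98 CPM in Col-0. The row that holds DCL1 with 2 other genes was at 1417 CPM in the truncated DCL1 library, against 143 to 152 CPM in dcl234. The truncated DCL1 library stood apart from the other 17 in CRK level, and it is the only one of its group. Replicates correlated across genes on log2 CPM at 0.964 or more, and the lowest value was among the rtl2-1 libraries.

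Outside the truncated DCL1 library the family held few abundant transcripts. By the median over the other 17 libraries, 7 members were at 10 CPM or more, 15 between 1 and 10 CPM, and 19 under 1 CPM. Per kilobase of exon, with exon lengths from the RefSeq annotation of assembly TAIR10.1, the highest mean level over those 17 libraries was that of CRK25 (AT4G05200) at 12.0 CPM per kb. That value holds the reads of its row partner AT4G05190 over the length of CRK25 alone, so it may be too high. CRK2 (AT1G70520) followed at 11.6, CRK10 (AT4G23180) at 7.63 and CRK3 (AT1G70530) at 7.26 CPM per kb. CRK2 is needed for full activity of the NADPH oxidase RBOHD, and a gain-of-function form of CRK10 is known to dwarf the plant. The levels of CRK25 ranged from 11.3 to 39.4 CPM and those of CRK2 from 20.7 to 44.8 CPM over the 17 libraries, so the order of the leading pair lies within their spread. CRK10 ranged from 15.6 to 23.8 CPM and CRK3 from 17.7 to 24.8 CPM, which also overlap.

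At the low end, CRK12 averaged 0.018 CPM per kb over the other 17 libraries, CRK31 0.019, CRK24 0.024 and CRK23 0.028. CRK33 had 0 counts in all 18 libraries, which allows a level of up to 0.00635 CPM over their 472332241 counts together. CRK31 had 25 counts and CRK32 had 28 counts in all. These 3 members were removed by the filter on low counts, and 38 of 41 were tested. Of those 38, CRK8, CRK12, CRK20, CRK23, CRK24 and CRK38, all high in the truncated DCL1 library, fail the filter when it is set on the other 17. CRK12, CRK20, CRK23 and CRK24 passed only through the truncated DCL1 library. CRK8 and CRK38 also reached the filter's cutoff in 35S-RTL1-Myc replicate 2, but in no other of the 17.

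**Figure D1:**
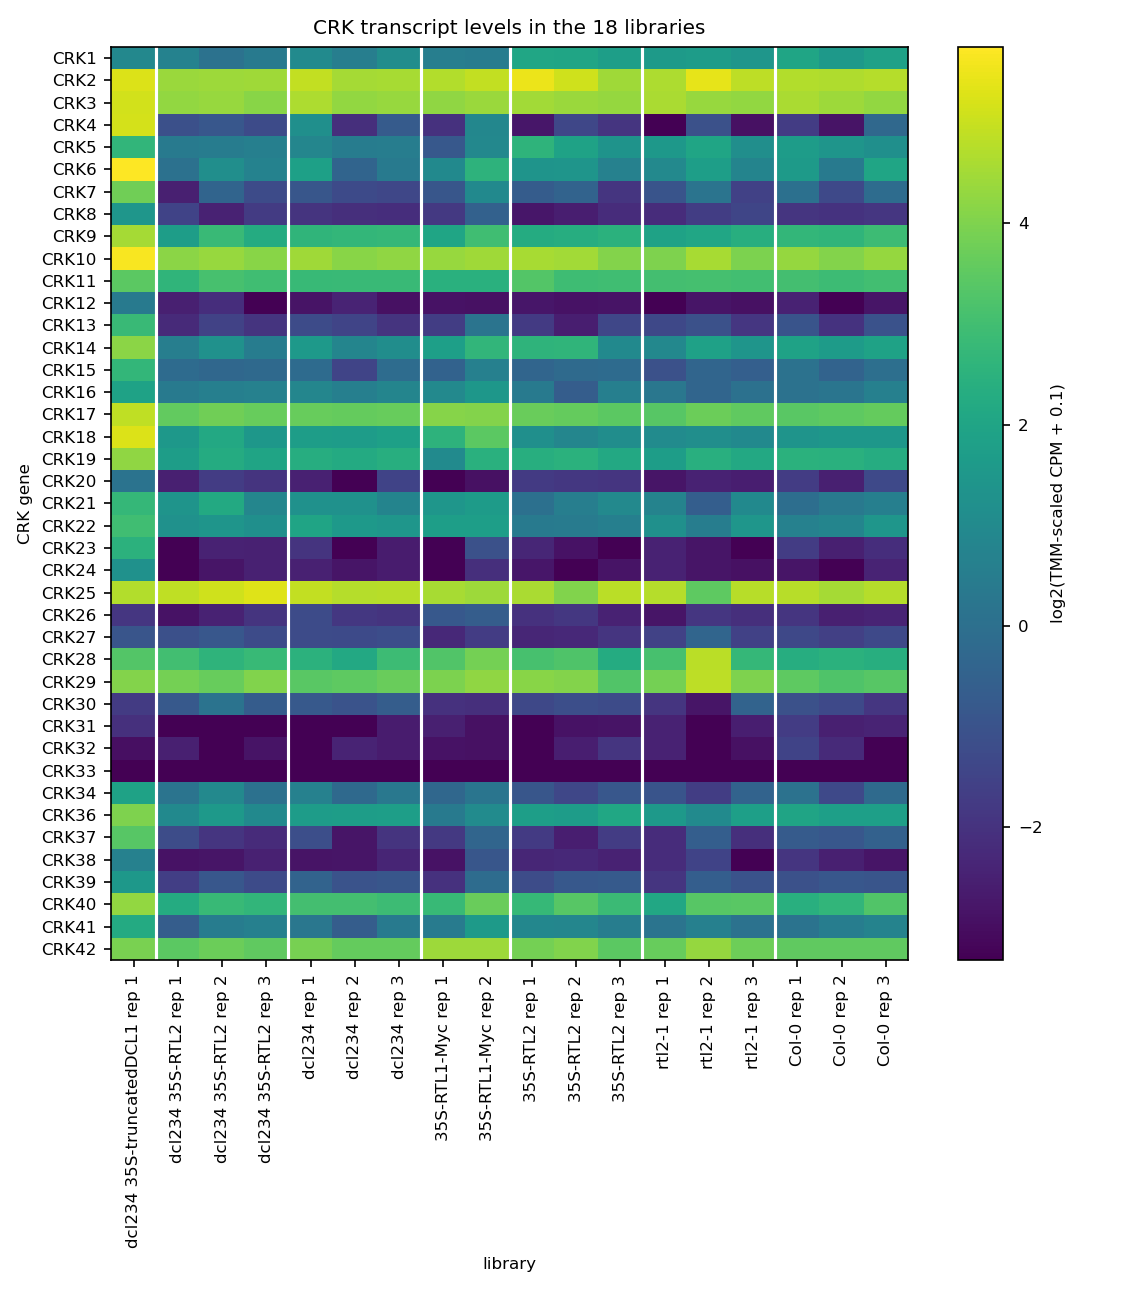
Level of each of the 41 CRK genes (rows) in each of the 18 libraries (columns, grouped with white lines), as log2 of TMM-scaled CPM plus 0.1, from dark (low) to yellow (high). The truncated DCL1 column is bright for most of CRK4 to CRK24 and CRK36 to CRK41, while CRK2, CRK3, CRK10 and CRK25 are bright in every column and CRK33 is at the lowest shade throughout.

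The library with truncated DCL1 was set against dcl234, the mutant background it shares. In this library, 25 of 38 members were called higher and 0 lower, at a Benjamini-Hochberg adjusted p below 0.05 in edgeR's quasi-likelihood test, which is 65.8% of those tested, against 5.65% of all rows called in either direction, 4.7% called higher and 0.946% called lower. The median log2 fold change was 1.91 over the members and 0.00 over all rows. A filter set on the other 17 libraries leaves 32 members, of which 19 were called higher and 0 lower (59.4%, against 4.47% of rows), with a median of 1.51. The group is 1 library, whose spread the fit takes from the other groups, so nothing checks the difference in a replicate. In whole seedlings, more cells of a type and more RNA per cell cannot be told apart.

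Summed over the 41 loci, CRK transcripts reached 545 CPM with truncated DCL1, against 175 to 211 CPM in the 3 dcl234 libraries. The highest sum among all other 17 libraries was 248 CPM. The truncated DCL1 library was the highest of the 18 for 29 of 41 members, where it was so for 8.51% of the rows tested. It was the highest for 23 of the 32 that pass the filter without it, against 8.18% of the rows that do. The 4 most abundant CRKs made up 33.3% of the sum in the truncated DCL1 library, against 51.1%, 49.6% and 48.4% in dcl234, so the sum was spread over more members there. The order of the members changed with it. Per kilobase, CRK6 led at 20.7 CPM per kb in the truncated DCL1 library and ranked 18 over the other 17 libraries, CRK18 was at 17.5 CPM per kb with ranks of 3 and 14, and CRK4 at 14.1 CPM per kb with ranks of 5 and 26.

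**Figure D2:**
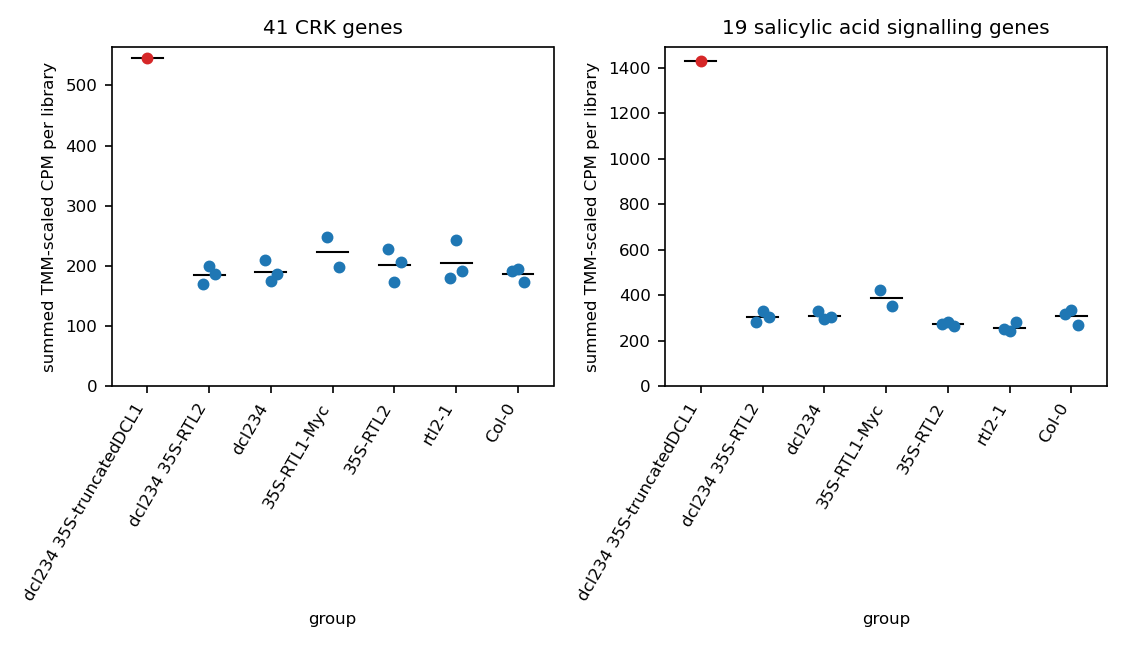
Summed TMM-scaled CPM per library of the 41 CRK genes (left) and of 19 salicylic acid signalling genes (right) in the 7 groups, each point 1 library and each bar the group mean. The truncated DCL1 library (red) reaches 545 CPM for the CRK genes and 1431 CPM for the salicylic acid genes, above the other 17 libraries in both panels.

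The change was spread along the largest array. Of the 20 members of CRK5 to CRK24, 18 were called higher, but CRK8, CRK12, CRK20, CRK23 and CRK24 fail the filter without the truncated DCL1 library. Of the 15 that pass the filter without it, 13 were called higher, against 4.47% of such rows, and all 15 had a level above each of the 3 dcl234 libraries, as did 34.6% of such rows. CRK16 (log2 fold change 1.20, adjusted p = 0.0901) and CRK21 (1.67, adjusted p = 0.0651) were not called in edgeR. The array's sum was 307 CPM in the truncated DCL1 library, against 62.3 to 73.5 CPM in dcl234. Of the array CRK36 to CRK40, 4 of 5 were called higher, or 3 of 4 without CRK38, which fails the filter without this library. The sum of this array was 49.6 CPM against 11.3 to 12.3 CPM in dcl234. Of the 2 tested members of CRK30 to CRK34, 0 were called in edgeR and 1 had an unadjusted p below 0.05, and for the 3 members of CRK27 to CRK29 both counts were 0. Of the 8 members outside these arrays, CRK3, CRK4 and CRK41 were called higher.

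CRK18 (AT4G23260) had the smallest adjusted p. It was at 38.7 CPM in the truncated DCL1 library, against 3.23, 3.16 and 3.45 CPM in dcl234 (log2 fold change 3.56, SE 0.26, adjusted p = 5e-06 in edgeR). Its level in the truncated library is also above the 11.0 CPM of 35S-RTL1-Myc replicate 2, the highest of the others. CRK17 (AT4G23250), its array neighbour, was at 29.3 CPM against 12.5, 12.1 and 12.5 CPM in dcl234 (1.25, SE 0.13). CRK37 (AT4G04500) was at 10.5 CPM against 0.359, 0.0445 and 0.157 CPM in dcl234 (5.76, SE 0.67). Its neighbour CRK36 (AT4G04490), which binds the cytoplasmic kinase BIK1, was at 15.7 CPM against 3.11, 3.20 and 3.29 CPM in dcl234 (2.29, SE 0.27).

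CRK13 (AT4G23210), whose overexpression raises salicylic acid and resistance to bacteria, was at 7.01 CPM in the truncated DCL1 library, against 0.319, 0.267 and 0.157 CPM in dcl234 (log2 fold change 4.83, SE 0.61). CRK6 and CRK7, both tied to responses to apoplastic oxidative stress, also rose. CRK6 (AT4G23140) was at 53.9 CPM against 3.51, 0.668 and 1.22 CPM in dcl234 (4.90, SE 0.65), and CRK7 (AT4G23150) at 13.6 CPM against 0.438, 0.312 and 0.282 CPM in dcl234 (5.29, SE 0.77). CRK15 (AT4G23230) was at 6.33 CPM against 0.797, 0.267 and 0.815 CPM in dcl234 (3.30, SE 0.43).

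CRK8 and CRK24 complete the 10 smallest adjusted p, and both fail the filter without the truncated DCL1 library. CRK8 (AT4G23160) was at 2.64 CPM there, against 0.159, 0.134 and 0.125 CPM in dcl234 (log2 fold change 4.20, SE 0.52). CRK24 (AT4G23320) was at 2.33 CPM, against 0.0797, 0.0445 and 0.0627 CPM in dcl234 (5.11, SE 0.75). The largest fold was that of CRK23 (AT4G23310), at 5.65 CPM against 0.159, 0 and 0.0627 CPM in dcl234 (6.14, SE 0.91), again with few counts in dcl234. The smallest folds called were those of CRK11 (0.65, SE 0.17) and CRK3 (0.69, SE 0.15). The remaining calls lay between these: CRK4 5.26, CRK38 4.46, CRK12 4.43, CRK14 3.03, CRK20 2.98, CRK39 2.49, CRK41 2.26, CRK5 2.12, CRK19 1.94, CRK9 1.87, CRK10 1.36 and CRK22 1.33. CRK9 lacks the kinase part of the protein, and overexpression of CRK5 is known to cause cell death.

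The dcl234 libraries themselves differed for the low members. Replicate 1 of dcl234 was at least 2-fold above both others in CRK4, CRK6, CRK23 and CRK37. Without CRK23, which passed the filter only through the truncated DCL1 library, these are 3 of 32 members, against 1.4% of such rows, with CRK4 (AT3G45860) at 2.19 CPM in it and at 0.134 and 0.502 CPM in the other two. With truncated DCL1, CRK4 reached 36.2 CPM, above all 3. Without dcl234 replicate 1, 23 members were called higher, a count that does not set apart members failing the filter on the other 17 libraries.

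Members not called in this comparison included several of the most abundant. CRK25 was at 26.2 CPM in the truncated DCL1 library, against 30.3, 26.5 and 27.6 CPM in dcl234 (log2 fold change -0.10, SE 0.36). CRK42 was at 15.2 CPM against 14.9, 12.2 and 12.1 CPM in dcl234 (0.22, SE 0.24). CRK2 was at 38.7 CPM against 30.5, 23.1 and 23.3 CPM in dcl234 (0.59, SE 0.30, adjusted p = 0.373). CRK28 (AT4G21400), which associates with BAK1 and FLS2, had 0.77 (SE 0.58) and CRK29 0.54 (SE 0.33). CRK34 (1.70, adjusted p = 0.0696) and CRK40 (1.28, adjusted p = 0.106) were also not called in edgeR.

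**Figure D3:**
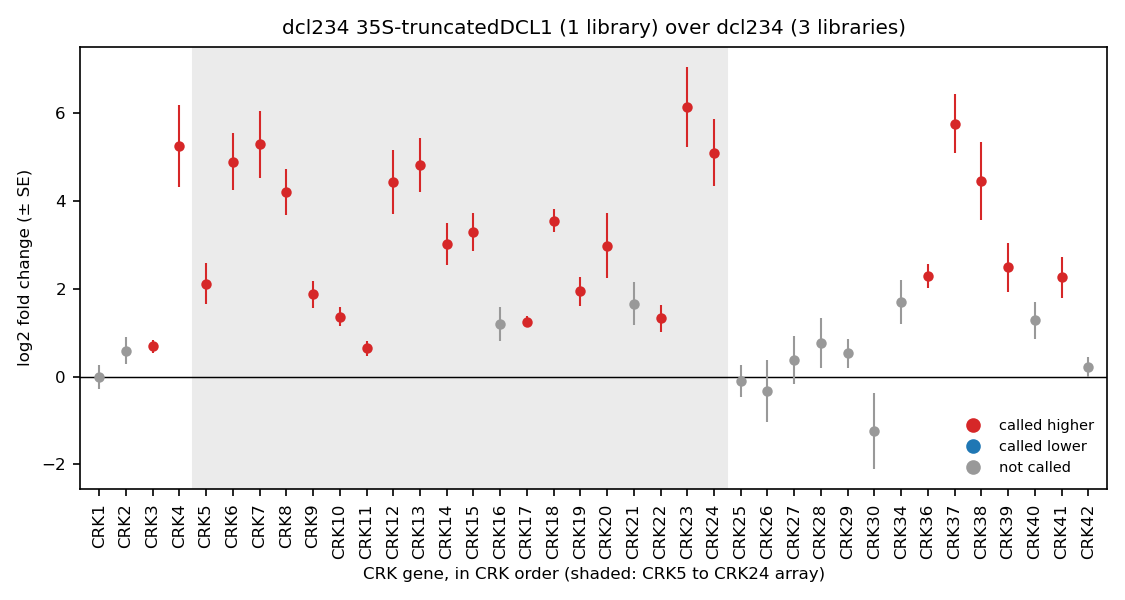
Log2 fold change of the truncated DCL1 library (1 library) over dcl234 (3 libraries) for the 38 tested CRK genes in CRK order, with bars of 1 SE, red where called higher and grey where not called. The CRK5 to CRK24 array is shaded, and its points lie above 0, 5 of them for members that fail the filter without this library, while CRK25 to CRK30 lie near 0 or have wide bars.

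The rows beside the array were looked at after its values were seen. Of the 10 tested rows before CRK5, 0 were called in edgeR, and of the 10 after CRK24, 0 were called higher and AT4G23400 was called lower (log2 fold change -0.73, SE 0.20). Of the other 2 tested rows between the members, AT4G23215 was called higher (4.31, SE 0.92) and AT4G23205 was not called (-0.08, SE 0.50).

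Other immune genes moved in the same library. In the truncated DCL1 library, 16 of 19 salicylic acid signalling genes were called higher and 0 lower relative to dcl234, against 4.7% of all rows higher and 0.946% lower. FMO1 of this list had 85 counts in that library and at most 5 in any other, so it was tested only because it is high there. PR1, a marker of salicylic acid responses, was at 169 CPM there, against 0.797, 0.223 and 0.439 CPM in dcl234 (8.41, SE 0.98). ICS1, the main enzyme of pathogen-induced salicylic acid synthesis, had a log2 fold change of 1.72 (SE 0.18), CBP60g, a transcription factor that binds its promoter, 3.71 (SE 0.40), the lipase-like regulator PAD4 2.35 (SE 0.27) and PR5 4.51 (SE 0.36). All 3 tested wall-associated kinases, receptors of cell wall pectin, were called higher, led by WAK1 at 2.67 (SE 0.36) and WAK3 at 5.51 (SE 0.78). In these lists and those that follow, the rows of EDS5, NPR1, SOBIR1, MPK6, WAK2 and CASP1 each also hold another gene, whose reads cannot be told apart from theirs.

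Genes of the receptor complexes in which several CRKs act were also measured. Of 13 genes of receptor complexes and the oxidative burst, 3 were called higher and 0 lower in the truncated DCL1 library: the receptor kinase SOBIR1 (log2 fold change 1.33, SE 0.12), the immune marker FRK1 (3.47, SE 0.56) and the kinase MPK3 (0.88, SE 0.20). Of 6 tested oxidative stress markers, 3 were called higher, among them the catalase CAT2 (1.82, SE 0.23). Of 7 tested plasmodesmata-located proteins, which carry DUF26 domains without a kinase, 0 were called higher and PDLP6 was called lower (-0.92, SE 0.21). The difference between these lists and the CRKs was not tested.

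Clock genes moved with the same library, while few tissue markers were called. The morning genes LHY (3.32, SE 0.30), CCA1 (3.62, SE 0.39) and PRR9 (3.64, SE 0.29) and also PRR7 were called higher and LUX and TOC1 lower, of 9 clock genes, and the labels do not give the hour of harvest. Of 6 shoot markers 1 was called higher, LHCB2.1 (1.43, SE 0.34), and the list's sum was 16372 CPM, against 10781 to 11555 CPM in dcl234. Of 5 tested root markers 0 were called in edgeR, with 2 at an unadjusted p below 0.05, and the list's sum was 21.7 CPM against 15.8 to 17.3 CPM in dcl234. Most of that sum was IRT1, at 19.2 CPM against 13.9, 12.2 and 13.2 CPM in dcl234. CASP1 was lower, at 1.36 CPM against 2.79, 3.12 and 2.79 CPM in dcl234. The part of harvest time and tissue make-up in the CRK difference was not tested.

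Plants with 35S-RTL1-Myc were compared with Col-0. There, 7 of 38 members were called higher and 3 lower, or 26.3%, against 29.5% of all rows (14.8% higher and 14.7% lower), so the share of CRKs called lay near that of all genes. The median log2 fold change was 0.47 over the members and -0.004 over all rows. Of the 7 higher calls, CRK16, CRK17, CRK18, CRK21 and CRK22 lie in the largest array, whose CRK11 was called lower. CRK26, another of the 7, was tested only because it is high in 35S-RTL1-Myc. The groups did not overlap for any of the 10 called members, which their small p mostly fixes in advance. Of all 41 members, 11 lay wholly above Col-0 and 8 wholly below, against 30.6% of all rows above and 30.9% below.

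CRK18 was at 5.72 and 11.0 CPM in 35S-RTL1-Myc, against 2.47, 2.71 and 2.67 CPM in Col-0 (log2 fold change 1.68, SE 0.24, adjusted p = 0.000135 in edgeR). CRK17 was at 17.3 and 16.8 CPM, against 10.7, 11.3 and 12.1 CPM in Col-0 (0.58, SE 0.11). CRK42 (AT5G40380) was at 21.5 and 21.4 CPM, against 11.5, 11.6 and 11.5 CPM in Col-0 (0.90, SE 0.19), with the reads of its row partner included. CRK26 (AT4G38830) was called at a low level, 0.470 and 0.544 CPM against 0.167, 0.0753 and 0.0862 CPM in Col-0 (2.17, SE 0.55). CRK26 had 13 and 16 counts in 35S-RTL1-Myc and at most 8 in any other library, so it passed the filter on low counts only through this group. CRK17 and CRK42 had almost the same value in both 35S-RTL1-Myc libraries, whereas CRK18 differed between them.

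CRK1 was at 1.38 and 1.29 CPM in 35S-RTL1-Myc, against 3.97, 2.90 and 3.54 CPM in Col-0 (log2 fold change -1.37, SE 0.23, adjusted p = 0.000512 in edgeR). CRK36 was at 1.23 and 1.97 CPM, against 3.80, 3.39 and 3.41 CPM in Col-0 (-1.14, SE 0.26). CRK36 thus fell here and rose in the truncated DCL1 library, each relative to its own control. The other calls were CRK21 (1.30), CRK16 (0.98), CRK22 (0.77) and CRK11 (-0.53). CRK5 (-1.22, adjusted p = 0.0520) and CRK29 (0.72, adjusted p = 0.0536) were not called in edgeR.

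**Figure D4:**
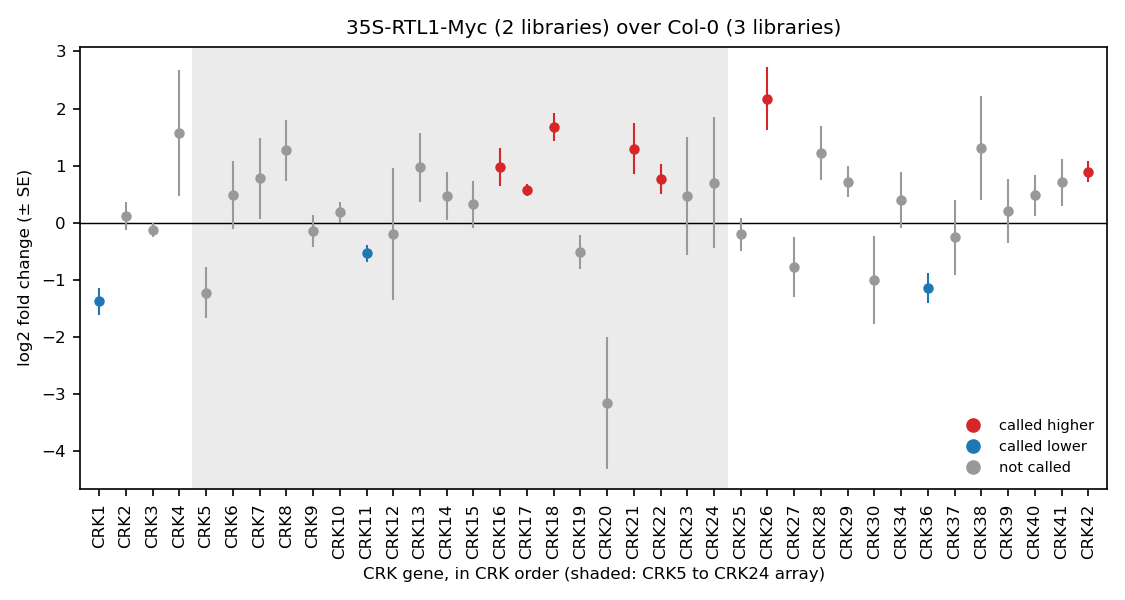
Log2 fold change of 35S-RTL1-Myc (2 libraries) over Col-0 (3 libraries) for the 38 tested CRK genes in CRK order, with bars of 1 SE, red where called higher, blue where called lower and grey where not called, and the CRK5 to CRK24 array shaded. In all, 7 points are red and 3 are blue, and the array holds points on both sides of 0.

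The 35S-RTL1-Myc libraries differed from each other within the family. Among the 32 members that pass the filter without the truncated DCL1 library, replicate 2 was at least 2-fold above replicate 1 in 10, against 2.49% of such rows, and the reverse held for 0 members, against 3.04% of such rows. Among them CRK6 was at 5.68 CPM in replicate 2 and 1.88 CPM in replicate 1, CRK7 at 1.87 and 0.434 CPM, CRK13 at 1.02 and 0.217 CPM, and CRK4 at 1.74 and 0.145 CPM. The others were CRK5, CRK15, CRK19, CRK37, CRK39 and CRK41, and none of the 10 was called against Col-0 in edgeR. The summed level of the 19 salicylic acid genes was 423 CPM in replicate 2 and 355 CPM in replicate 1, with PR1 at 4.97 and 0.145 CPM. PR2 was at 38.2 and 2.71 CPM and PR5 at 51.0 and 18.3 CPM. In the other direction went PBS3 (58.4 and 71.9 CPM), NPR3 (25.8 and 40.5 CPM), EDS1 and PAD4.

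Among the lists beside the CRKs, the 35S-RTL1-Myc plants had 5 of 19 salicylic acid genes higher and 2 lower than Col-0, or 36.8%, near the 29.5% of all rows called. Among them were PBS3, an enzyme of salicylic acid synthesis (log2 fold change 1.35, SE 0.23), and EDS1, the partner of PAD4 (-0.64, SE 0.15). Of 6 tested oxidative stress markers 5 were higher and 0 lower, led by CAT2 (1.44, SE 0.19) and ZAT12 (1.95, SE 0.28). Of the 13 receptor complex genes 3 were higher, among them RBOHD (1.38, SE 0.15), which makes the oxidative burst, and 4 were lower, among them the flagellin receptor FLS2 (-1.12, SE 0.34) and FRK1 (-2.40, SE 0.59). Of 7 tested plasmodesmata-located proteins 1 was higher and 3 were lower, and of 3 tested wall-associated kinases 0 were called in edgeR, with 1 at an unadjusted p below 0.05. Clock genes moved too, 3 of 9 higher and 5 lower, with LHY at 5.05 (SE 0.27), while 2 root markers were higher and 1 lower, and 1 shoot marker was lower. Their part in the CRK differences was not tested.

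Against Col-0, dcl234 had 1 of 38 members called, CRK1 (AT1G19090), which was lower, where 4.56% of all rows were called and 3.8% were lower. CRK1 was at 1.91, 1.38 and 2.07 CPM in dcl234, against 3.97, 2.90 and 3.54 CPM in Col-0 (log2 fold change -0.95, SE 0.20, adjusted p = 0.0150 in edgeR). The groups did not overlap, as for 7 of 41 members and 18.2% of all rows in that direction. The call was lost without dcl234 replicate 1 (adjusted p = 0.0556), without dcl234 replicate 2 (adjusted p = 0.0721), without Col-0 replicate 1 (adjusted p = 0.0720), and with the number in the deposited file names as a term (adjusted p = 0.150). The median over the members was 0.03 and over all rows 0.01. In the lists beside the CRKs, AOX1A (-0.64, SE 0.14), an oxidase of the mitochondrial respiratory chain, was called lower, and no other gene of these lists was called in edgeR.

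The dcl234 mutation was also compared with intact DCL genes within plants that carry 35S-RTL2. There, 4 of 38 members were called higher and 4 lower in dcl234 35S-RTL2 than in 35S-RTL2, or 21.1%, against 20.9% of all rows (9.11% higher and 11.8% lower). CRK1 was at 1.53, 0.959 and 1.19 CPM in dcl234 35S-RTL2, against 3.99, 3.97 and 3.33 CPM in 35S-RTL2 (log2 fold change -1.61, SE 0.21, adjusted p = 0.000255 in edgeR). This was the only one of the 8 called under every setting tried. CRK5 (AT4G23130) was at 1.20, 1.29 and 1.39 CPM, against 5.82, 3.68 and 2.44 CPM in 35S-RTL2 (-1.61, SE 0.39). CRK14 was also lower, at 1.39, 2.33 and 1.31 CPM against 5.91, 6.00 and 1.87 CPM in 35S-RTL2 (-1.46, SE 0.41), where the groups overlap.

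Among the higher members, CRK34 (AT4G11530) was at 1.02, 1.83 and 0.955 CPM in dcl234 35S-RTL2, against 0.433, 0.286 and 0.447 CPM in 35S-RTL2 (log2 fold change 1.71, SE 0.46). CRK27 (AT4G21230) was at 0.365, 0.459 and 0.318 CPM, against 0.0962, 0.107 and 0.163 CPM in 35S-RTL2 (1.60, SE 0.48). CRK22 (AT4G23300) was at 2.33, 2.54 and 2.19 CPM, against 1.20, 1.29 and 1.42 CPM in 35S-RTL2 (0.85, SE 0.26). The groups did not overlap for these 3, which were picked by their calls. Of all 41 members, 7 lay wholly above 35S-RTL2 and 4 wholly below, against 20.2% of all rows above and 19.9% below. CRK18 (0.72, SE 0.24) was called higher and CRK2 (-0.66, SE 0.22) lower, the groups of CRK2 overlapping. The count of calls fell to 1 without 35S-RTL2 replicate 1, to 2 without 35S-RTL2 replicate 2, to 4 without dcl234 35S-RTL2 replicate 1 or replicate 2, and to 3 without its replicate 3.

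In the lists beside the CRKs, dcl234 35S-RTL2 plants had FLS2 (log2 fold change -1.15, SE 0.30), FRK1 (-1.55, SE 0.49) and the transcription factor gene WRKY29 (-1.82, SE 0.61) lower than 35S-RTL2 plants. AOX1A (-1.05, SE 0.14), PDLP6 (-0.51, SE 0.14), PDLP8 (-0.48, SE 0.16), LHY (-0.91, SE 0.28) and NPR3 (-0.38, SE 0.13), a salicylic acid receptor, were lower as well. EDS5 (0.36, SE 0.11), a transporter in salicylic acid synthesis, and IRT1 (0.57, SE 0.15), an iron transporter of root epidermis, were higher.

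The levels of CRK1 fell into 2 ranges by genotype, a feature singled out after its values were seen and given without a test. It had 1.79 CPM with truncated DCL1 and lay between 0.959 and 2.07 CPM in all 9 libraries of the dcl234 background or with 35S-RTL1-Myc. The 9 libraries of 35S-RTL2, rtl2-1 and Col-0 were between 2.60 and 3.99 CPM. The share of all rows that split in this way is not given, so the split is not read as particular to CRK1. In the truncated DCL1 library over dcl234, where most members were called higher, CRK1 had a log2 fold change of -0.01 (SE 0.28).

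**Figure D5:**
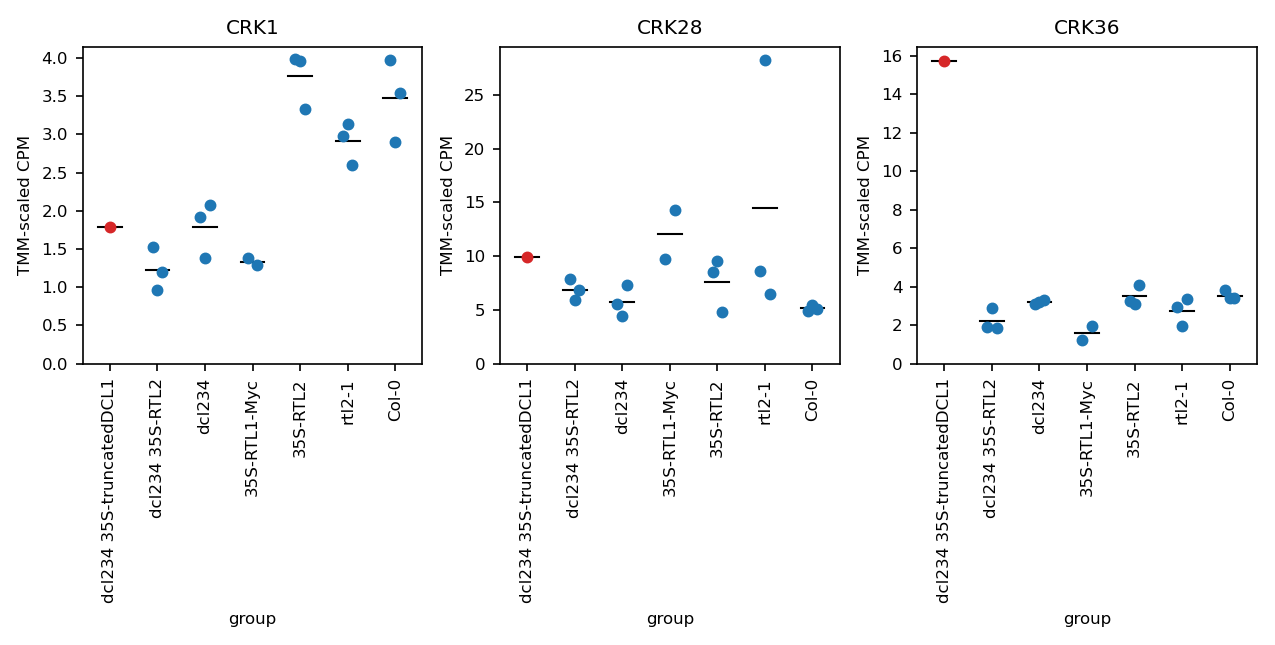
TMM-scaled CPM of CRK1, CRK28 and CRK36 in each library by group, each point 1 library, the bar the group mean and the truncated DCL1 library in red. CRK1 is at 2.07 CPM or less in the dcl234 and 35S-RTL1-Myc groups and at 2.60 CPM or more in the other 3 groups, CRK28 has 1 rtl2-1 library at 28.3 CPM, and CRK36 reaches 15.7 CPM with truncated DCL1.

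Overexpression of RTL2 in plants with intact DCL genes moved no CRK past the threshold. In 35S-RTL2 against Col-0, 0 of 38 members were called by edgeR and 0 by DESeq2, 3 had an unadjusted p below 0.05, and 0.00937% of all rows were called by edgeR. The smallest p belonged to CRK37 (log2 fold change -1.74, SE 0.70, adjusted p = 0.899 in edgeR), CRK27 (-1.12, SE 0.50) and CRK22 (-0.56, SE 0.26). CRK37 was at 0.192, 0.0714 and 0.203 CPM in 35S-RTL2, against 0.502, 0.452 and 0.604 CPM in Col-0, a difference of few counts in which the groups do not overlap, as for 5.66% of rows in that direction.

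In rtl2-1 against Col-0, 0 of 38 members were called by edgeR and 1 by DESeq2. In edgeR, 4 had an unadjusted p below 0.05, and 0.122% of all rows were called. DESeq2 called more rows than edgeR in this comparison, with both counts in the closing paragraph. CRK29 (AT4G21410) was at 14.5, 28.8 and 16.0 CPM in rtl2-1, against 11.3, 9.49 and 10.4 CPM in Col-0 (log2 fold change 0.92, SE 0.24, adjusted p = 0.234 in edgeR and 0.0463 in DESeq2). CRK28 was at 8.62, 28.3 and 6.43 CPM, against 4.93, 5.46 and 5.05 CPM in Col-0 (1.48, SE 0.44, adjusted p = 0.279 in edgeR). CRK9 had -0.62 (SE 0.26). All 3 rtl2-1 libraries were above the 3 Col-0 libraries for CRK28, CRK29 and CRK42, or 3 of 41 members, against 6.97% of rows. For CRK28 and CRK29 replicate 2 was the highest. That library was at least 2-fold above both other rtl2-1 libraries in 5 of 32 members that pass the filter without the truncated DCL1 library, against 3.35% of such rows, and FLS2 was at 92.1 CPM in it and at 33.2 and 45.6 CPM in the other two.

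Adding 35S-RTL2 to dcl234 called 0 of 38 members by edgeR and 0 by DESeq2 relative to dcl234, with 2 at an unadjusted p below 0.05 in edgeR and 0.0609% of all rows called. CRK1 had -0.54 (SE 0.21, adjusted p = 0.787 in edgeR), CRK36 -0.54 (SE 0.23) and CRK26 -1.19 (SE 0.59). The difference between the RTL2 effect in dcl234 and in intact plants called 0 of 38 members by edgeR and 0 by DESeq2, with 1 at an unadjusted p below 0.05, and 0.00937% of all rows. CRK1 had the smallest p (difference of log2 fold changes -0.66, SE 0.29, adjusted p = 0.891), followed by CRK27 (1.34, SE 0.65) and CRK2 (-0.64, SE 0.31). In these 4 comparisons 0 genes of the other lists were called by edgeR, and between 0 and 4 genes of a list had an unadjusted p below 0.05.

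The comparisons of 35S-RTL1-Myc, 35S-RTL2, rtl2-1 and dcl234 share the 3 Col-0 libraries, and those of truncated DCL1 and of 35S-RTL2 within the mutant share the 3 dcl234 libraries. For CRK18 the log2 fold changes were 3.56 in truncated DCL1 over dcl234, 1.68 in 35S-RTL1-Myc over Col-0 and 0.72 in dcl234 35S-RTL2 over 35S-RTL2, all called higher. The last of these calls was lost in 7 of 16 alternatives, the other two in none. For CRK22 they were 1.33, 0.77 and 0.85, also all called higher, but the calls were lost in 3 of 11, 7 of 15 and 6 of 16 alternatives. The deposited file names carry a number from 1 to 3 whose meaning is not stated. Within a number that holds both groups, the direction of a called member was mostly fixed in advance, since most of these groups did not overlap, so the sizes are given. In truncated DCL1 over dcl234, the median size of the log2 ratio of CPM within number 1 was 3.57 over the 25 called members. Their fitted median was 3.03. They include CRK8, CRK12, CRK20, CRK23, CRK24 and CRK38, which fail the filter without the truncated DCL1 library. Number 1 holds that same library and 2 of the 3 dcl234 libraries, so the value is no separate check. Over the 10 called members in 35S-RTL1-Myc over Col-0 the median size was 1.03 within numbers 2 and 3 alike (1.06 fitted). Over the 8 in dcl234 35S-RTL2 over 35S-RTL2 it was 1.68 within number 1 and 1.49 within number 3 (1.53 fitted). For CRK1 in dcl234 over Col-0 the log2 ratio was -0.49 within number 3, against a fitted value of -0.95.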

How the data were processed

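mRNA from 18 seedling samples was sequenced on the Illumina platform, per the labels. The deposited values are raw whole-number counts per row, which the authors made with build TAIR9, per the submitters' processing notes. For the aligner, counter and strand setting nothing is given in the sources used here. There are 31362 rows in each table, of which 1897 join 2 or more genes. Totals of 20775728 to 34874423 counts set the precision, and the floor of 3 counts covers counting error only. The groups come from the titles.

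Low rows were removed with edgeR's filterByExpr, leaving 21343. Counts were scaled by TMM and tested in edgeR 4.0.16 (glmQLFit, glmQLFTest; R 4.3.3) in 1 fit over all 18 libraries, with Benjamini-Hochberg adjustment over all rows and a threshold of 0.05. SE is the log2 fold change over the root of F. The common biological coefficient of variation was 15.1%. The scripts were tested on simulated counts. Alternatives were DESeq2 1.42.0, its size factors, other filters, a replicate block, the file number as a term, joined rows removed, groups fitted alone, a minimum fold and each library left out. A filter set on the other 17 libraries, and a fit without the truncated DCL1 library, were chosen after seeing the data.

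The members and gene lists were chosen with earlier results of these data known. Named are every called member, the 3 smallest p where none was called, the 4 highest and 4 lowest members, those filtered out or in shared rows, and up to 5 called genes of each other list. Per-library values are given for the 10 smallest adjusted p in the comparison with most calls and up to 6 elsewhere. Sequences are not reported here.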

Additional observations from a re-analysis of the deposited data

How the results depend on the processing

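Of 44 calls of single members, 16 were tested and called under every alternative fit: 12 of 25 in truncated DCL1 over dcl234, 3 of 10 in 35S-RTL1-Myc over Col-0, 1 of 8 in dcl234 35S-RTL2 over 35S-RTL2 and 0 of 1 in dcl234 over Col-0. Some members had no value in an alternative, removed by its filter or with the joined rows, and 25 calls were never lost where there was a value. Of these, 20 were in truncated DCL1 over dcl234, among them CRK8, CRK12, CRK23, CRK24 and CRK38. Those members fail the filter on the other 17 libraries, and each had a value in 9 alternatives, where others had up to 11. Over 549 recomputed values of all 44 calls, those members included, 474 kept the call, 75 lost it and 0 changed direction. With a minimum absolute log2 fold change of 1, 5 members were called in 35S-RTL1-Myc (10 as reported), 0 in dcl234 (1 as reported) and 5 in dcl234 35S-RTL2 over 35S-RTL2 (8 as reported). With the file number as a term dcl234 called 0. With the compared groups fitted alone dcl234 called 2 and dcl234 35S-RTL2 over 35S-RTL2 called 4. A stricter filter (1 CPM in 3 libraries) left 25 members and 15 calls in truncated DCL1 over dcl234 (25 as reported), since fewer members are tested; the filter set on the other 17 libraries, chosen after seeing the data, gave 19. DESeq2 called 1 member, CRK29, in rtl2-1 over Col-0 (0 as reported), and the causes of these changes were not tested. Leaving out 1 library in turn gave 20 to 23 calls in truncated DCL1 over dcl234, 7 to 10 in 35S-RTL1-Myc, 0 to 1 in dcl234, 1 to 8 in dcl234 35S-RTL2 over 35S-RTL2, and 0 throughout in the other 4 comparisons. With 1 truncated DCL1 library the group cannot be left out of its own comparison. Low levels limit the members under 1 CPM.

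Replicate numbers of the titles were not taken to pair the samples. The correlations of same-numbered deviations ran from -0.302 to 0.437, and not every pair passed 0.1. With Col-0 they were all positive for 35S-RTL2, rtl2-1 and dcl234, so these values do not settle whether the numbers pair samples. With the replicate block, 10 members were called in 35S-RTL1-Myc, 1 in dcl234, 9 in dcl234 35S-RTL2 over 35S-RTL2 and 0 in the other comparisons with shared numbers. The truncated DCL1 library has no number in its title, so it has no such fit.

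Over all rows, rtl2-1 over Col-0 had 26 calls in edgeR and 140 in DESeq2, and dcl234 over Col-0 had 973 as reported, 149 with the file number and 3336 with the groups fitted alone. Truncated DCL1 over dcl234 had 1205 as reported and 2942 with the groups fitted alone. The counts as reported and in DESeq2 were 2 and 7 in 35S-RTL2 over Col-0, 13 and 51 in dcl234 35S-RTL2 over dcl234, and 2 and 11 for the difference of the RTL2 effects. The minimum fold left 2518 of 6289 calls in 35S-RTL1-Myc over Col-0, 1369 of 4461 in dcl234 35S-RTL2 over 35S-RTL2, 518 of 973 in dcl234 over Col-0 and 757 of 1205 in truncated DCL1 over dcl234.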
